A study of Mus musculus with 24 samples.

Results

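The chloride channel regulator (Clca) genes of the mouse were followed across colon and colorectal tumours of wild-type (WT) mice and of mice that lack Axin1 in the intestinal epithelium (KO). The family comprised the 7 genes Clca1, Clca2, Clca3a1, Clca3a2, Clca3b, Clca4a and Clca4b, found by symbol among 55487 gene rows. The family was chosen on the level of Clca4b, which is far higher in colon of mice given dextran sulfate sodium (DSS) than in untreated colon. The differences between DSS-treated and untreated colon thus chose the members, and they are given below as a description, without a test. Comparisons of the genotypes on the DSS days use the same DSS libraries, so they are not fully independent of that choice.

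Clca proteins are secreted or membrane-bound proteins with a metalloprotease-like domain and a von Willebrand factor type A domain. Despite the family's name they are not channels themselves. Clca1 is a product of goblet cells, is released into mucus, cleaves itself and takes part in processing the intestinal mucus layer, and it can raise the activity of the calcium-activated chloride channel Ano1 at the cell surface. Clca4a and Clca4b are close relatives expressed by intestinal enterocytes, Clca2 is a gene of stratified squamous epithelia, and Clca3a1, Clca3a2 and Clca3b form a rodent branch of recent duplicates.

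All mice were C57BL/6. The 8 groups held 3 libraries each: untreated colon (water), colon on day 7 and on day 13 of a DSS protocol, which injures the colonic epithelium, and tumours raised with azoxymethane (a carcinogen) and DSS, each from WT and from KO mice. Axin1 holds together the protein complex that targets β-catenin for degradation in Wnt signalling. The labels do not state which promoter drives the deletion, how old the mice were or when tumours were taken, and none says whether libraries of a group came from separate mice, so p-values measure the spread between these libraries only.

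The libraries held 15.65 M to 28.07 M expected counts (M, 1000000). Axin1 was lower in KO than in WT libraries in every condition, at 13.5 to 19.7 CPM (counts per 1000000 counts of the library) against 47.4 to 58.8. The 6 colon epithelium genes (Epcam, Vil1, Cdx1, Cdx2, Krt8, Krt20) were above 0 in all 24 libraries and summed to 3004 to 11665 CPM. In 3 libraries, WT day 13 replicate 3, KO day 13 replicate 1 and KO tumour replicate 2, the squamous keratin Krt5 stood at 1642, 283.1 and 207.0 CPM, against at most 1.41 elsewhere. In another 2, KO untreated replicate 3 and WT tumour replicate 1, the distal hindgut gene Hoxd13 was at 0.0801 and 0.039 CPM, against 6.32 to 378.8 elsewhere. By Xist and Ddx3y the WT day 13 mice were all male and the KO day 13 mice all female, so genotype and sex cannot be told apart on that day. On day 7 the WT mice were all female and the KO mice were 1 male and 2 females, while untreated mice were 2 males and 1 female in WT and all male in KO. Sex therefore also differs fully between day 13 and untreated KO colon and between day 13 and day 7 in WT colon, and enters the genotype difference in the day 13 response, and its part in these was not tested apart from the covariate given below. In colon only the untreated WT and KO day 7 groups held both sexes, so this covariate rests mainly on them. It cannot separate sex from genotype or condition where sex differs fully. The sex of the mice with tumours is not given here, and its part in the tumour comparisons was likewise not tested apart from that covariate.

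The 7 genes lie on the minus strand of chromosome 3 in a block of 369.8 kb (GRCm38, GENCODE M21), in the order Clca3a1 (chr3:144729677-144760977), Clca3a2 (chr3:144796559-144819494), Clca3b (chr3:144822623-144849357), Clca4b (chr3:144910921-144932529), Clca4a (chr3:144952480-144975045), Clca1 (chr3:145003817-145032776) and Clca2 (chr3:145070263-145099443). A transcribed pseudogene, Clca4c-ps (chr3:144861826-144896011), lies between Clca3b and Clca4b. The members differ in how far their reads can be told apart. The longest transcripts of Clca3a1 and Clca3a2 were 96.6% identical and those of Clca4a and Clca4b 95.6%. Of all 50-base words, 37.1% of those in Clca4a, 24.8% in Clca4b, 23.5% in Clca3a2, 23.3% in Clca3a1 and 6.68% in Clca3b also occurred in another gene of the block, and none of those in Clca1 or Clca2. The authors' expected counts, which divide reads that match several genes, were not whole numbers (tolerance 0.001) for Clca3a1, Clca3a2 and Clca4a in 24 of 24 libraries, and were whole for Clca1 and Clca2 in all of them. The division of reads between Clca4a and Clca4b, and between Clca3a1 and Clca3a2, is therefore uncertain, while Clca1 and Clca2 are free of this limit.

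RefSeq promoter windows (GRCm38.p6) are shown for 2 members: Clca4b, which had the highest mean CPM in DSS-treated WT colon after Clca1, and Clca3a1, the member with the lowest p-value between genotypes on day 13. Each is printed 5′ to 3′ on the minus strand and ends before the annotated transcript. Capitals mark the longest run of letters that both share.

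Clca4b, chr3:144932530-144932779: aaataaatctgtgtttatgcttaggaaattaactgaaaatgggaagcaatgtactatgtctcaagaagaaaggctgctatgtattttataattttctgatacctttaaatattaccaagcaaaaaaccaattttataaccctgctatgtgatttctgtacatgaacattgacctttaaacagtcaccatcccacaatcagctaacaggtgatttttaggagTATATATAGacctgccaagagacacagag
Clca3a1, chr3:144760978-144761227: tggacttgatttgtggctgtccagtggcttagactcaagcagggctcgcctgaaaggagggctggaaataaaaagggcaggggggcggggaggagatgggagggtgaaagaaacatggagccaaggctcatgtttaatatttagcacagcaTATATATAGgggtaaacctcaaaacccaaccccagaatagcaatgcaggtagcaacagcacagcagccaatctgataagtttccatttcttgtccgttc

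The shared run had 9 bases and began at base -29 of Clca4b and -99 of Clca3a1, counted from the RefSeq start. Both strands were searched for 7 motifs, given here with the share of 32851 RefSeq windows of 250 bases that held each: TATAAA (the TATA box, 12.4%), TTTATNG (bound by CDX factors, 9.8%), CTTTGAT (TCF factors, 3.2%), TTCNNNGAA (STAT factors, 7.0%), TGANTCA (AP-1, 6.7%), AGATAA (bound by zinc finger factors of the GATA family, 10%) and CAAAGTCCA (HNF4 factors, 0.4%). Clca4b held TATAAA on the opposite strand at -166 to -161 and at -119 to -114, which do not overlap, and none of the other 6. Clca3a1 held none of the 7. Only the words as written were searched, so related words, such as TATATA in the shared run, were not counted. A match is a description of the letters, not a site.

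Compared per transcript length, as TPM (transcripts per 1000000 transcripts), Clca1 made up nearly all of the family's RNA in untreated colon and little of it in tumours. Its share of the summed TPM of the 7 genes was 90.3% ± 1.05 (SD, n = 3) in untreated WT colon. In WT colon the mean share was 49.2% on day 7 and 45.2% on day 13, and in WT tumours 6.56%. Clca4b took up most of the difference in these groups, with mean shares of 0.249%, 34.1%, 32.2% and 55.0% in the same order. In KO mice the Clca1 share was 85.9% untreated, 69.5% on day 7, 88.1% on day 13 and 18.9% in tumours, and the Clca4b share 1.27%, 16%, 2.94% and 43.5%. The KO colon of day 13 thus had a make-up closer to untreated colon than to WT colon of the same day. The summed TPM was 1280 ± 590.6 in untreated WT colon, 3560 ± 677.7 on day 7 and 3111 ± 706.4 on day 13, against 1222 ± 224.1, 1612 ± 684.2 and 1826 ± 404.0 in KO colon. In tumours it was 1396 ± 664.9 in WT and 757.9 ± 477.5 in KO mice (SD, n = 3 in each group).

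**Figure D1:**
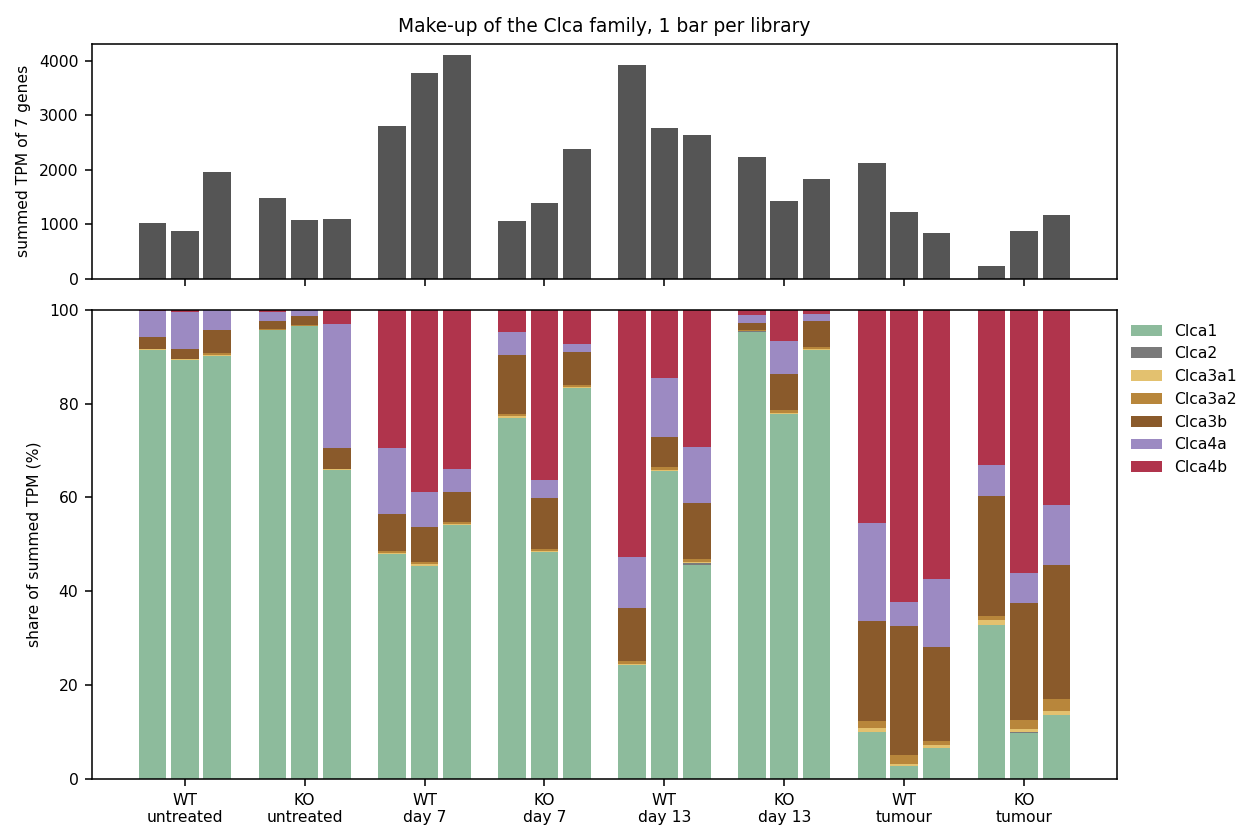
Summed TPM of the 7 Clca genes (upper panel) and the share of each gene in that sum in percent (lower panel), 1 bar per library, 3 libraries in each of 8 groups. Clca1 fills most of each bar in untreated colon and in KO colon of day 13, and Clca4b is the largest part in all 3 WT tumours and in KO tumours has a mean share of 43.5%.

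In untreated WT colon the order by mean TPM was Clca1 (1157 ± 533.1), Clca4a (69.0 ± 12.6), Clca3b (47.1 ± 43.8), Clca4b (2.72 ± 0.764), Clca3a2 (2.64 ± 2.59), Clca3a1 (1.96 ± 1.29) and Clca2 (0.163 ± 0.0569). Clca4a and Clca3b did not differ beyond their spread, and neither did Clca4b, Clca3a2 and Clca3a1. On day 7 in WT colon Clca4b (1230 ± 350.8 TPM) stood below Clca1 (1762 ± 440.4), within each library as well as by means. In WT tumours Clca4b came first at 736.1 ± 246.5 TPM, followed by Clca3b (317.7 ± 142.7), Clca4a (209.5 ± 205.9) and Clca1 (102.0 ± 98.2). This order held within each WT tumour, although the SDs between tumours were wide. In KO tumours the order of the first 2 by means was the same, with Clca4b at 350.5 ± 236.7 and Clca3b at 203.6 ± 137.3 TPM. Clca4b was above Clca3b within each KO tumour.

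Clca1, the goblet cell member, kept a similar level in all 6 colon groups. On the CPM scale it was 2278, 1946 and 4400 in the 3 untreated WT libraries, 3543, 3939 and 6273 on day 7, and 2563, 4802 and 2866 on day 13. In KO colon it was 3765, 2757 and 2097 untreated, 2067, 1781 and 5427 on day 7, and 6212, 2904 and 4626 on day 13. Every colon group overlapped every other. The goblet cell list of 15 genes, which includes the mucin Muc2 and the mucus protein Fcgbp, had no member that passed the test between genotypes on day 7 (median log2 difference -0.32 against 0.05 over all genes) or on day 13 (-0.38 against -0.02) by edgeR's quasi-likelihood test.

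In tumours Clca1 was 493.6, 76.8 and 124.1 CPM in WT and 148.0, 184.4 and 327.9 in KO mice, all below every colon library. Against untreated colon of the same genotype it fell by 3.63 on the log2 scale in WT mice (SE 0.64, adjusted p = 0.000148, edgeR), a 12.4-fold difference of means, and by 3.71 in KO mice (SE 0.64, adjusted p = 0.000131), 13.1-fold. Both calls held under all alternative settings tried (15 for WT, 16 for KO). In this comparison 48.8% of all genes tested passed in WT and 49.9% in KO mice, and 21.2% and 23.5% were lower. Of the 15 goblet cell genes, 7 fell and 2 rose in WT tumours (median -0.39, all genes 0.09), and 11 fell and 1 rose in KO tumours (median -2.15, all genes 0.04). Fcgbp fell by 2.21 (SE 0.44, adjusted p = 0.00044) in WT and by 2.54 (SE 0.44, adjusted p = 0.000146) in KO tumours. Creb3l1, a transcription factor of secretory cells, fell by 2.04 (SE 0.40, adjusted p = 0.00041) in WT tumours, and Tff3, a trefoil peptide of mucus, by 1.90 (SE 0.36, adjusted p = 0.000327) in KO tumours. The summed level of the list was 2086 to 7883 CPM in WT tumours and 804.6 to 2503 in KO tumours, against 5533 to 12836 and 7201 to 18618 in untreated colon. The values 7883 and 18618 were those of WT tumour replicate 1 and KO untreated replicate 3, the libraries with almost no Hoxd13. The other WT tumours were at 2120 and 2086 CPM and the other untreated KO libraries at 8966 and 7201. Between KO and WT tumours edgeR called 0 of the 15 genes (median -0.88, all genes -0.01). In bulk tissue, fewer goblet cells and less Clca1 RNA per goblet cell cannot be told apart. Tumour libraries also held less smooth muscle RNA: all 10 genes of that list fell in both genotypes, from a summed 4087 to 9379 CPM in untreated colon to 188.8 to 376.4 in tumours, and its part in the differences between tumour and colon was not tested.

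**Figure D2:**
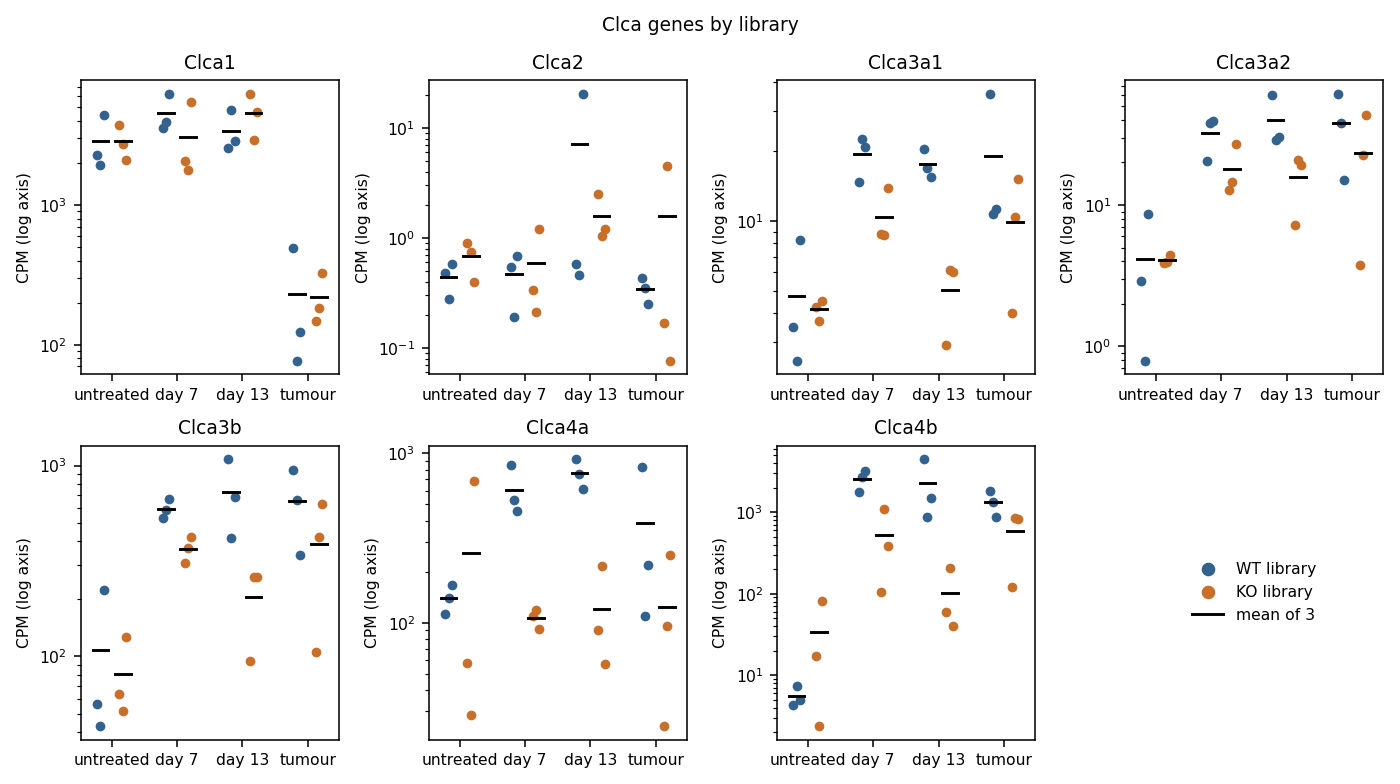
CPM of each Clca gene on a log axis, 1 point per library (blue WT, orange KO), by condition, with a black bar at the mean of 3 libraries. Clca1 is level over colon and lower in all 6 tumours, whereas Clca4b is at 863.1 CPM or more in every WT library of DSS-treated colon and tumour and at 204.2 CPM or less in KO colon of day 13.

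Clca4b, the enterocyte gene that led to the choice of the family, was nearly silent in untreated WT colon and among the abundant transcripts after DSS. It was 4.25, 7.31 and 4.98 CPM in untreated WT colon, 1779, 2739 and 3203 on day 7 and 4497, 863.1 and 1501 on day 13. These means were 467-fold and 415-fold that of untreated colon. In KO mice it was 17.2, 2.36 and 82.2 CPM untreated, 103.6, 1088 and 386.6 on day 7 and 60.1, 204.2 and 40.0 on day 13, that is 15.5-fold and 2.99-fold by means. All 6 WT libraries of DSS-treated colon were above all untreated ones, whereas the KO libraries of day 13 overlapped those of untreated KO colon through replicate 3 of the latter alone. The fitted log2 differences from untreated colon were 8.81 ± 1.39 (SE) on day 7 and 8.66 ± 1.38 on day 13 in WT mice, and 3.96 ± 1.11 and 1.60 ± 1.01 in KO mice. The highest untreated KO value belonged to replicate 3, the library with almost no Hoxd13. Without it the KO differences of Clca4b were 5.75 on day 7 and 3.38 on day 13, without KO day 7 replicate 2 the former was 2.87, and without KO day 13 replicate 2 the latter was 0.57. With Y-linked expression as a covariate they were 2.7 and 0.16, but this covariate cannot separate sex from condition between day 13 and untreated KO colon.

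Between genotypes, Clca4b in KO colon was 20.4% of the WT mean on day 7 and 4.43% on day 13, with no overlap of the libraries on either day. The log2 difference was -2.26 ± 1.03 (SE, adjusted p = 0.173) on day 7 and -4.47 ± 1.13 (adjusted p = 0.0513) on day 13, so neither passed the threshold of 0.05. Both use DSS libraries that also entered the choice of the family. The day 13 value lay close to that threshold: 4 of 16 alternatives passed it, among them DESeq2 (adjusted p = 0.00036) and the fit without WT day 13 replicate 2 (0.024), and the range was 0.00036 to 0.334. The difference between genotypes in the response itself, KO minus WT, was -4.85 ± 1.48 on day 7 (adjusted p = 0.221) and -7.06 ± 1.55 on day 13 (adjusted p = 0.0831). It is built from the differences from untreated colon that chose the family, so its p-values are not independent of that choice. The day 13 value passed with DESeq2 (adjusted p = 0.00015), without WT day 13 replicate 2 (0.0275) and without KO untreated replicate 2 (0.0386), and the day 7 value with DESeq2 (0.0324). In untreated colon the direction was the other way, KO minus WT 2.59 ± 1.07 (adjusted p = 0.754), and groups overlapped; without KO untreated replicate 3 the value was 0.82.

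The 4 genes of the Clca3 and Clca4 branches other than Clca4b differed in how they followed it. Clca4a was 113.3, 139.1 and 166.3 CPM in untreated WT colon, 846.4, 529.1 and 455.5 on day 7 and 923.9, 757.5 and 612.8 on day 13, a non-overlapping difference of 4.37-fold and 5.48-fold by means. In KO colon it was 58.2, 28.6 and 684.4 CPM untreated, 109.0, 119.4 and 91.6 on day 7 and 90.4, 214.8 and 56.9 on day 13. No KO library of DSS-treated colon reached the lowest WT library of the same day, and the KO mean was 17.5% of WT on day 7 and 15.8% on day 13. The KO minus WT difference was -2.48 ± 0.84 on day 7 (adjusted p = 0.0879) and -2.65 ± 0.84 on day 13 (adjusted p = 0.108), and each passed only with DESeq2 among the alternatives (adjusted p = 0.0241 and 0.0201).

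The value of 684.4 CPM in untreated KO colon was that of replicate 3, the library with almost no Hoxd13. This library stood apart in other genes as well: Muc2 was at 10726 CPM against 1189 and 1476 in the other untreated KO libraries, and the distal hindgut gene Hoxb13 at 2.64 against 567.6 and 569.2. Without it, the KO minus WT difference of Clca4a in untreated colon turned from 0.85 ± 0.80 to -1.70 (adjusted p = 0.356), and its mean over the 3 colon conditions went from -1.43 ± 0.47 (adjusted p = 0.0807) to -2.27 (adjusted p = 0.00259). The difference of KO colon from untreated KO colon went from -1.26 ± 0.81 to 1.3 on day 7 and from -1.07 ± 0.80 to 1.48 on day 13. The mean over colon of Clca4b went from -1.38 ± 0.58 (adjusted p = 0.154) to -1.97 (adjusted p = 0.0484). WT tumour replicate 1, the other library with almost no Hoxd13, had the highest Clca4a of all tumours (832.7 CPM, the others 24.5 to 250.3). The lowest Hoxd13 among the remaining libraries, 6.32 and 11.2 CPM, was in WT day 7 replicate 1 and WT untreated replicate 3, which had the highest Clca4a of their groups. Other groups went the other way by the summed distal hindgut genes, Hoxd13 and Hoxb13 among them. WT day 13 replicate 3, KO day 13 replicate 3 and KO tumour replicate 1 had the lowest sums of their groups (454.0, 735.8 and 310.2 CPM). Their Clca4a was also the lowest (612.8, 56.9 and 24.5 CPM). In KO day 7 replicate 1, with the lowest sum (536.3 CPM), Clca4a was in the middle (109.0 CPM). The part of the position along the colon in the level of Clca4a was not tested.

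**Figure D3:**
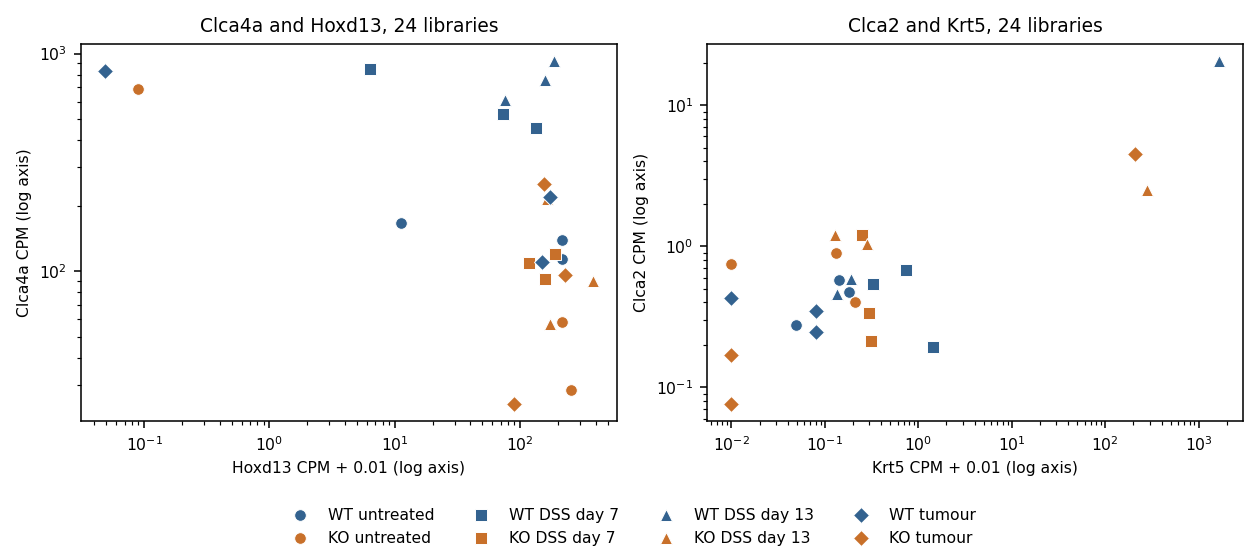
Left, Clca4a against Hoxd13, and right, Clca2 against Krt5, in CPM on log axes, 1 point per library, with colour for genotype and shape for condition. The 2 libraries at the far left have Hoxd13 below 0.1 CPM and Clca4a of 684.4 and 832.7 CPM, and the 3 libraries at the far right have Krt5 of 207.0 to 1642 CPM and Clca2 of 2.52 to 20.5 CPM.

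The ratio of the pair differed between untreated and DSS-treated colon. Clca4b TPM over Clca4a TPM was 0.03 to 0.0525 in untreated WT colon, 2.1 to 7.03 on day 7, 1.14 to 4.87 on day 13 and 2.18 to 12.1 in WT tumours. In KO mice it was 0.082 to 0.296 untreated, 0.951 to 9.12 on day 7, 0.666 to 0.951 on day 13 and 3.26 to 8.78 in tumours. All 3 KO libraries of day 13 lay below all 3 WT libraries of that day. The 2 genes share many reads, so the ratio depends on how the authors' counting divided them.

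The neighbours Clca3a1, Clca3a2 and Clca3b moved together over a wide range of levels. Clca3b, the most abundant of the 3, was 56.2, 43.0 and 223.1 CPM in untreated WT colon, 530.5, 584.9 and 669.4 on day 7 and 1082, 416.9 and 682.5 on day 13. In KO colon it was 63.6, 51.9 and 126.0 untreated, 307.2, 368.1 and 421.2 on day 7 and 95.0, 260.4 and 259.2 on day 13. Every library of DSS-treated WT colon was above every untreated one, and KO libraries lay below WT libraries on both days without overlap. Clca3a2 was 0.791 to 8.67 CPM in untreated WT colon, 20.5 to 39.2 on day 7 and 29.0 to 60.5 on day 13, and in KO colon 3.92 to 4.45, 12.7 to 26.9 and 7.27 to 20.8. The fitted differences from untreated colon in WT mice were 2.41 ± 0.58 and 2.73 ± 0.59 (log2, SE) for Clca3b and 2.92 ± 0.64 and 3.25 ± 0.65 for Clca3a2 on days 7 and 13. In KO mice they were 2.19 ± 0.58 and 1.36 ± 0.56 for Clca3b and 2.14 ± 0.62 and 1.95 ± 0.62 for Clca3a2. WT untreated replicate 3 was the highest untreated WT library for all 3 genes, and without it the WT differences of Clca3b were 3.53 and 3.85. With Y-linked expression as a covariate, which cannot separate sex from condition here, the KO differences of day 13 were 0.08 for Clca3b and 0.55 for Clca3a2.

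Clca3a1 was the 1 member that passed the test between genotypes. On day 13 it was 20.5, 17 and 15.5 CPM in WT and 2.91, 6.13 and 6.02 in KO colon, with no overlap. It was lower in KO mice by a log2 difference of -1.80 ± 0.39 (SE, adjusted p = 0.0259). On day 7 it was 14.8, 22.7 and 20.8 CPM in WT and 8.75, 8.69 and 13.9 in KO colon (-0.86 ± 0.37, adjusted p = 0.158), and in untreated colon 3.47, 2.49 and 8.27 against 4.25, 3.70 and 4.53. As a mean over the 3 colon conditions it was lower in KO mice by a log2 difference of -0.96 ± 0.22 (adjusted p = 0.0285). Both calls were fragile. The day 13 call was lost when any of WT day 13 replicates 1 and 3 or KO day 13 replicates 1, 2 and 3 was left out (adjusted p = 0.066 to 0.125), without the 3 libraries with squamous genes (0.23), and with Y-linked expression as a covariate (0.118). The log2 difference itself was -1.51 to -1.97 in these left-out sets and -2.68 with the covariate. The day 13 call was also lost with all 24 libraries (-1.81, adjusted p = 0.0614) and with only the groups compared (-1.80, adjusted p = 0.0863). It was kept by 7 of 16 alternatives. The mean over colon was lost when any of KO untreated replicates 1 and 2, KO day 7 replicates 1 and 2, WT day 13 replicates 1 and 3 or KO day 13 replicates 1 and 3 was left out (0.0506 to 0.0661).

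Taking the family as a whole, edgeR called 1 of 7 members between genotypes on day 13, where 2.51% of 18102 genes were called and 1.86% were called lower. DESeq2 called 4 members and 1337 of 18102 genes. On that day 5 of 7 had KO libraries all below WT libraries (Clca3a1, Clca3a2, Clca3b, Clca4a, Clca4b), where 12.3% of all genes did. These 5 genes share part of their reads and correlate with each other, so they are not separate observations on either DSS day. Genotype and sex cannot be told apart on day 13. On day 7 none of the 7 was called by edgeR (0.00552% of all genes were). An unadjusted p below 0.05 was held by 3 members and by 4887 of 18102 genes, and DESeq2 called 1 member and 2432 genes. For 4 members the KO libraries all lay below the WT libraries, as for 13.9% of all genes. The median log2 difference of the 7, KO minus WT, was -0.02 in untreated colon, -0.81 on day 7 and -1.81 on day 13, beside -0.01, 0.05 and -0.02 over all genes. For Clca3b the day 13 difference was -1.81 ± 0.57 (adjusted p = 0.104 by edgeR and 0.0183 by DESeq2) and for Clca3a2 -1.32 ± 0.60 (adjusted p = 0.254). Over the mean of the colon conditions edgeR called 1 member, where 4.84% of all genes were called and 3.88% were lower. DESeq2 called 3 members and 2458 of 18102 genes there. In untreated colon none was called by edgeR or DESeq2 (0.011% of genes by edgeR, 65 genes by DESeq2), with 1 member and 1182 genes at an unadjusted p below 0.05.

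**Figure D4:**
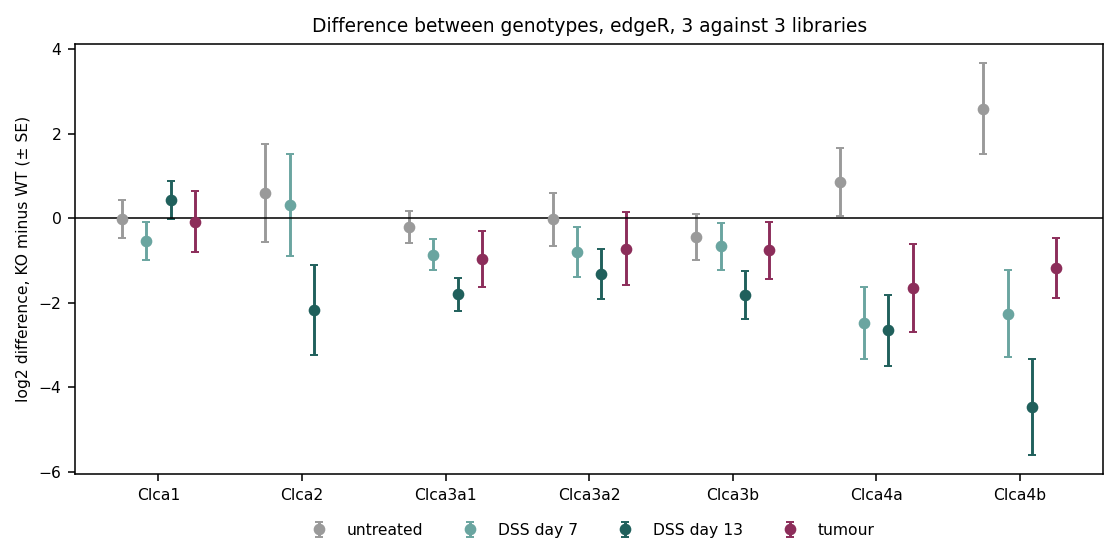
Log2 difference KO minus WT of each Clca gene (points) with its SE (bars) from edgeR, in untreated colon, DSS day 7, DSS day 13 and tumours, 3 libraries against 3. Clca3a1, Clca3a2, Clca3b, Clca4a and Clca4b lie below 0 on both DSS days, Clca1 stays within 0.53 of 0, and Clca2 was not tested in tumours.

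In the contrasts with untreated colon, which chose the family and are no test of it, the number of members with an adjusted p below 0.05 was 4 in WT mice on day 7, 4 in WT mice on day 13, 4 in KO mice on day 7 and 0 in KO mice on day 13. The corresponding shares of all genes called were 16.3%, 4.24%, 12.6% and 0.0276%, and in the first 3 of these contrasts, where these members were higher, 8.52%, 3.21% and 8.57% of genes were called higher. All libraries lay above untreated colon for 5, 5, 4 and 2 members in the same order, and for 18.7%, 15.4%, 18.8% and 7.49% of all genes. Nothing is read from these counts. Between the 2 DSS days no member was called by edgeR in WT mice, where 0.0608% of genes were. In that comparison 1 member and 3060 of 18102 genes had an unadjusted p below 0.05, and DESeq2 called 0 members and 751 genes. None was called by edgeR in KO mice either, where 12.8% of genes were. There 2 members and 4686 genes had an unadjusted p below 0.05, and DESeq2 called 1 member and 3108 genes. The lone DESeq2 call was Clca3a1, which in KO colon was lower on day 13 than on day 7 without overlap (-1.05 ± 0.38, adjusted p = 0.0879 by edgeR and 0.0413 by DESeq2). Clca3b was the other member whose KO libraries of day 13 all lay below those of day 7, as 20.7% of all genes did. The difference between genotypes in the response is built from the contrasts that chose the family, so it is not independent of that choice. In it edgeR called no member on day 7 (0.0% of genes) and none on day 13 (0.011%). An unadjusted p below 0.05 was held by 2 members and 2487 of 18102 genes on day 7, and by 3 members and 2448 genes on day 13. DESeq2 called 1 member on each day, beside 363 and 577 genes.

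White blood cell genes were lower in DSS-treated KO colon as well. In untreated colon their median difference was 0.01 (all genes -0.01), with 0 called. On day 13 genotype and sex cannot be told apart. Of 12 neutrophil and monocyte genes, 11 fell in KO against WT colon on day 13 (median -4.16, all genes -0.02, with 1.86% of all genes called lower), among them Fcgr1, an antibody receptor of macrophages (-3.58 ± 0.51, adjusted p = 0.00835), and Trem1, a receptor of neutrophils and monocytes (-4.98 ± 0.93, adjusted p = 0.0171). Their summed level was 269.3 to 653.0 CPM in WT and 214.5 to 283.7 in KO colon of day 13, and 371.2 to 571.3 against 170.9 to 190.5 on day 7, when edgeR called 0 of the 12 (median -2.74, all genes 0.05). S100a8, a defining gene of neutrophils, was 12.2 to 93.2 CPM in WT and 0.0391 to 3.25 in KO colon of day 13. Of 13 measured genes of regenerating epithelium, 2 fell on day 13, Plaur, the urokinase receptor (-2.75 ± 0.48, adjusted p = 0.0133), and the keratin Krt7 (-1.42 ± 0.29, adjusted p = 0.021). The list's median was -1.05. In the type 2 cytokine list 1 of 6 measured genes fell, the receptor chain Il4ra (-1.87 ± 0.35, adjusted p = 0.0171), with a median of -0.89. The part of any of these in the Clca differences was not tested.

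In tumours Clca4b, Clca3b, Clca3a2 and Clca3a1 were higher than in untreated colon by the test in both genotypes, and Clca4a was not called in either. Clca4b was 1813, 1330 and 865.0 CPM in WT tumours and 120.2, 841.5 and 814.9 in KO tumours. Each tumour exceeded every untreated library of its genotype. The comparison with untreated colon shares its untreated libraries with the contrasts that chose the family, so it is not independent of that choice. Clca4b rose by 7.92 ± 1.31 (log2, SE, adjusted p = 8.84e-05) in WT and by 4.13 ± 1.10 (adjusted p = 0.00457) in KO tumours. Clca3b, at 341.6 to 952.6 CPM in WT and 105.0 to 630.0 in KO tumours, rose by 2.60 ± 0.66 (adjusted p = 0.00327) and 2.26 ± 0.65 (adjusted p = 0.00767). Clca3a2, at 15.1 to 61.4 and 3.75 to 43.6 CPM, rose by 3.22 ± 0.80 (adjusted p = 0.00273) and 2.50 ± 0.78 (adjusted p = 0.0121). Clca3a1, at 10.7 to 35.5 and 4.02 to 15.2 CPM, rose by 2.02 ± 0.52 (adjusted p = 0.00345) and 1.25 ± 0.51 (adjusted p = 0.0489). In KO tumours the libraries of Clca3a1, Clca3a2 and Clca3b overlapped those of untreated KO colon.

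With Clca1, this made 5 of 7 members called in each genotype, 4 higher and 1 lower, where 27.6% of all genes in WT and 26.4% in KO mice were called higher. In WT mice all tumours lay above untreated colon for 4 members (33.2% of all genes) and below it for 1 (26.8%), and in KO mice for 1 (32.6%) and 1 (26.6%). The KO call of Clca3a1 was lost under 11 of 16 alternatives, including leaving out any of KO untreated replicates 1 to 3 or KO tumour replicates 2 and 3 (adjusted p = 0.0832 to 0.25). That of Clca3a2 was lost without KO tumour replicate 3 (0.0914). With only the groups compared in the fit, the KO calls of Clca3a2 (0.0501) and Clca4b (0.0564) and the WT call of Clca3a1 (0.052) were lost as well. Clca4a was 832.7, 109.8 and 218.6 CPM in WT and 24.5, 95.9 and 250.3 in KO tumours. Its difference from untreated colon was 1.47 ± 0.93 (adjusted p = 0.201) in WT and -1.06 ± 0.92 (adjusted p = 0.356) in KO mice, and the latter was 1.51 (adjusted p = 0.14) without KO untreated replicate 3.

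Between tumours of the genotypes no gene was called by edgeR (0.0% of 17245, with 654 genes at an unadjusted p below 0.05 and 22 called by DESeq2), and none of the 6 members tested had an unadjusted p below 0.05. The log2 difference KO minus WT was -1.18 ± 0.70 for Clca4b, -1.66 ± 1.04 for Clca4a, -0.97 ± 0.66 for Clca3a1 and -0.76 ± 0.67 for Clca3b, each with an adjusted p of 0.942. Clca4b was the only member whose KO tumours all lay below the WT tumours, where 5.07% of all genes did. KO tumour replicate 1, the lowest KO tumour for Clca1, Clca3a1, Clca3a2, Clca3b, Clca4a and Clca4b, also had the lowest summed colon epithelium genes (3004 CPM, the other tumours 4488 to 7737).

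Clca2, the squamous member, was close to absent from most libraries and stood out only where squamous keratins did. It was 0.0762 to 1.21 CPM in 21 of the 24 libraries. It reached 20.5 CPM in WT day 13 replicate 3, 4.48 in KO tumour replicate 2 and 2.52 in KO day 13 replicate 1, the 3 libraries with Krt5. The squamous genes Krt14 and Trp63 were also at their highest there: Krt14 stood at 1099, 150.0 and 406.5 CPM (at most 74.0 elsewhere) and Trp63 at 60.6, 14.8 and 5.62 CPM (at most 0.419 elsewhere) in the same order. The summed level of the 17 squamous genes listed was also higher in the other tumours (143.8 to 266.1 CPM) than in untreated colon (47.6 to 79.0). The KO minus WT difference of Clca2 on day 13, -2.17 ± 1.06 (adjusted p = 0.296), rested on WT replicate 3 and was 1.61 (adjusted p = 0.361) without it. Likewise the excess of WT day 13 over untreated colon, 3.99 ± 1.18, was 0.20 without that library.

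Among 24 genes of chloride and bicarbonate transport, such as the secretory channel Cftr and the exchanger Slc26a3, 22 were tested. On day 13, 1 rose and 0 fell in KO against WT colon: the sulfate transporter Slc26a2 (1.74 ± 0.43, adjusted p = 0.0442), with a median of 0.31 for the list and -0.02 over all genes. In tumours against untreated colon, 2 rose and 10 fell in WT (median -0.64, all genes 0.09) and 2 rose and 11 fell in KO mice (median -0.96, all genes 0.04). Over all genes 27.6% rose and 21.2% fell in WT, and 26.4% rose and 23.5% fell in KO mice. Slc26a2 fell by 4.72 (SE 0.59, adjusted p = 5.93e-06) in WT and by 4.61 (SE 0.59, adjusted p = 8.18e-06) in KO tumours. Best2, a bicarbonate channel of colonic goblet cells, fell by 4.46 (SE 0.77, adjusted p = 0.000125) in WT tumours. Gucy2c, the guanylin receptor, fell by 2.25 (SE 0.36, adjusted p = 7.14e-05) in KO tumours. The list's summed level was 1561 to 1874 CPM over the 6 tumours and 4799 to 7232 in untreated colon.

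Over the 24 libraries, which share their groups, the log2 CPM of Clca3a2 and Clca3b correlated at r = 0.96, Clca3a1 and Clca3b at 0.93 and Clca3b and Clca4b at 0.89, while Clca4a and Clca4b, next to each other and alike in sequence, correlated at 0.62. Clca1 correlated with the other members at -0.24 to 0.27. Among 12814 genes with a mean of at least 2 CPM, those most like Clca4b were the RNase gene Zc3h12a (r = 0.93), the surface antigen gene Ly6a (0.929), the retinol dehydrogenase gene Dhrs9 (0.928), the oxidase maturation factor gene Duoxa2 (0.924) and the nitric oxide synthase gene Nos2 (0.916). Duoxa2 was also among the 5 most alike for Clca3a1, Clca3a2 and Clca3b (0.867, 0.888 and 0.879). Clca3a1 was led by the growth factor receptor gene Egfr (0.882), Clca3a2 by Tnip3 (0.904), Clca3b by Dhrs9 (0.897) and Clca4a by Rhof (0.857), followed by Sppl2a (0.846) and the death receptor gene Fas (0.823). For Clca1 the most alike gene was the mitochondrial creatine kinase gene Ckmt2 (0.955). For Clca2 the list was squamous, with Adh7 (0.839), Krt5 (0.831) and Spink5 (0.814).

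Of the nearest 2 protein-coding genes on each side of the block, none was called in any comparison within colon. Over the 18 colon libraries Sh3glb1 and Selenof, on the side of Clca3a1, were 144.8 to 208.6 and 121.8 to 220.5 CPM, and Odf2l and Col24a1, on the side of Clca2, 12.9 to 20.4 and 0.193 to 4.54 CPM. Col24a1, a collagen gene, had KO minus WT differences of -1.79 ± 0.64 on day 7 (adjusted p = 0.101), -1.35 ± 0.61 on day 13 (adjusted p = 0.253) and -1.13 ± 0.35 over the mean of colon (adjusted p = 0.0708). Odf2l was higher in tumours than in untreated colon by 0.42 ± 0.14 (adjusted p = 0.0185) in WT and 0.52 ± 0.14 (adjusted p = 0.00521) in KO mice. Within the block, the pseudogene Clca4c-ps was 0.0433 to 0.119 CPM in untreated WT colon, 3.09 to 11.4 on day 7 and 3.60 to 10.9 on day 13, and 0.587 to 1.12 in KO colon of day 13. Its day 13 difference between genotypes was -2.88 ± 0.58 (adjusted p = 0.0205). This call was not checked under the alternative settings, and genotype and sex cannot be told apart on that day. In KO colon the pseudogene was 0.12 to 0.445 CPM untreated and 0.979 to 2.75 on day 7. It shares 11.1% of its 50-base words with Clca4b and 23.3% with Clca4a, so its reads cannot be fully separated from theirs. The antisense genes Gm16233 and Gm35066 overlap Clca4a, and the labels do not state whether counting used the strand. They were at most 9.77 and 2.45 CPM.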

How the data were processed

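RNA from colon and tumours was sequenced in 24 libraries, and the labels assign 3 libraries to each of 8 groups. Per the submitters' processing notes, STAR 2.7.6a and RSEM 1.3.1 were used with GRCm38. Neither the annotation release nor the handling of strand is stated; positions are from GENCODE M21. RSEM expected counts and TPM per gene and library are as the authors deposited them, with no further scaling.

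Expected counts were rounded and tested with edgeR 4.0.16 (R 4.3.3; TMM, filterByExpr, robust quasi-likelihood F test), with Benjamini-Hochberg adjustment over all genes tested and a threshold of 0.05. The comparisons within colon used all 18 colon libraries (18102 genes), KO against WT tumours the 6 tumour libraries (17245 genes, Clca2 not among them) and tumour against untreated colon all 24 (19056 genes). The other 6 members passed the filter on low counts in every fit, and Clca2 in the other fits. SE is the log2 change divided by the square root of F. CPM are counts scaled by TMM factors over the 24 libraries; the deposited TPM served to compare genes with each other. Log2 changes are given where they reached their SE, otherwise CPM only.

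The members, the 11 gene lists and the tests were chosen with earlier results of these data known. The rule for naming genes was all members, the 2 nearest protein-coding genes on each side, the 5 most correlated genes per member and up to 4 list genes with the smallest p. Alternatives were DESeq2 1.42.0, limma 3.58.1 on log2(TPM + 1), RLE scaling, other filters, other sets of libraries, a covariate from 4 Y-linked genes and leaving out each replicate; 2 sets of left-out libraries were added after seeing the data. The fit was tested on simulated counts. Transcripts were aligned with Biopython 1.88. Replicates of a group differed by more than sampling noise. Other promoter sequences of the family are not reported here.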

Additional observations from a re-analysis of the deposited data

How the results depend on the processing

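No paired analysis was possible because the labels give no replicate numbers. The replicate numbers used here follow the order in which the series lists the samples of each group. The counts of called members depended on the setting, and DESeq2 called more of all genes than edgeR in every comparison. Between genotypes on day 13, where 1 was called, DESeq2 called 4 and limma on TPM 2, and 0 were called with the Y-linked covariate, with only the groups compared or without the 3 libraries with squamous genes. With all 24 libraries in the edgeR fit, Clca4b (adjusted p = 0.0319) was called in place of Clca3a1. For the mean over colon, where 1 was called, DESeq2 and the set without the 2 libraries with almost no Hoxd13 gave 3, limma on TPM 2, and all 24 libraries, the set without the 4 colon libraries with repeated sample numbers and the set without the squamous libraries 0. DESeq2 called 1 member in place of 0 between genotypes on day 7, between the DSS days in KO mice and for the difference in response on day 7 and on day 13; the Y-linked covariate and the groups compared alone also gave 1 between the DSS days in KO mice. Against untreated colon, where 4 were called, the groups compared alone gave 2 in WT mice on day 7 and on day 13, and without the repeated numbers 1 and 0 were left. In KO mice on day 7, 4 became 1 without a filter, 0 with the Y-linked covariate or without the repeated numbers, and 2 with all 24 libraries or without the libraries with almost no Hoxd13. In KO tumours against untreated colon, 5 became 2 with only the groups compared. Leaving out each replicate in turn gave 0 to 3 called members for day 13 between genotypes and for the mean over colon, 0 to 1 for the difference in the day 13 response, 3 to 4 for WT day 7, 0 to 2 for KO day 7 and 0 to 5 for WT day 13 against untreated colon, and 3 to 5 for KO tumours; the other comparisons gave 0 to 0, and WT tumours 5 to 5.

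Some log2 differences turned sign. Clca4a, KO minus WT in untreated colon, was -0.51 with limma on TPM and -1.70 without KO untreated replicate 3, alone or with WT tumour replicate 1 (range when leaving out single replicates -1.70 to 1.38). Clca4a in KO tumours against untreated colon was 0.10 with limma on TPM and 1.51 in both of those sets (range -2.09 to 1.51). Clca2, KO minus WT on day 13, was 1.12 without the squamous libraries and 1.61 without WT day 13 replicate 3 (range -2.72 to 1.61), and its difference in the day 13 response 0.53 and 1.02 (range -3.31 to 1.02). Apart from the left-out libraries the cause was not tested. Of the single-gene values under all alternatives, 1173 kept direction and side of the threshold or, without a test, moved by less than the spread between replicates, 10 tested values turned sign, 35 lost and 22 gained a call. A further 26 values without a test moved beyond the spread between replicates, and of these Clca4a in KO colon against untreated colon without KO untreated replicate 3 (alone or with WT tumour replicate 1) and Clca1 in KO colon of day 13 with the Y-linked covariate (-0.21) also turned sign, as did Clca4a in KO colon of day 7 with limma on TPM, within that spread. Clca2 stood at 0.0762 to 1.21 CPM in 21 of 24 libraries, so its values rest on few counts there.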
